A study of Mus musculus with 19 samples.

Results

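Left ventricular myocardium taken on day 10 was compared with left ventricular myocardium taken on day 3 of a course of tamoxifen, over the 3 arrays titled as day 10 and the 3 arrays titled as day 3, 6 of the 19 arrays of the series. The mice carried MerCreMer, a Cre recombinase coupled to a mutated estrogen receptor and driven by the cardiac alpha-myosin heavy chain promoter, on a C57Bl6/J background, and were males of 12 to 20 weeks. Tamoxifen free base in peanut oil was injected intraperitoneally at 1.0 mg a day (40 mg/kg): the day 3 hearts had 3 days of it, and the day 10 hearts had 5 days of it followed by 5 days without it. According to the labels cardiac function was worst at day 10 and had fully returned 4 weeks on, so this comparison runs from the first days of dosing to the peak of the disease. The series also holds 5 baseline control, 4 day 2 and 4 day 28 arrays; they entered the fit through the shared estimate of the spread, and control levels are given beside the results. Every group carries the MerCreMer transgene, and no group received vehicle or carried no Cre, so the drug, the recombinase and the passage of time cannot be told apart. The labels of the day 10 hearts speak of a normal diet after the tamoxifen, although the protocol gives injection as the route.

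A heart under acute injury first switches on immediate early transcription factors, heat shock chaperones, the integrated stress response run by ATF4 and the p53 checkpoint genes, all of which act within the cells already present. Over the following days leukocytes enter the tissue, resident cells divide, fibroblasts lay down collagen and its cross-linking enzymes, and the myocyte alters its contractile isoforms, calcium handling and fuel use. Fatty acids are the main fuel of the adult ventricle, and their oxidation in mitochondria depends on a set of nuclear genes under PGC-1alpha and the estrogen-related receptors.

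Levels are log2 intensities of single Illumina probes after background correction with an offset of 50, and n is 3 arrays in each of the day 3 and day 10 groups. Replicate arrays correlated at r = 0.966 to 0.985 at day 3 and at 0.984 to 0.987 at day 10 over all probes tested, and the median SD between replicates was 0.182 at day 3 and 0.160 at day 10. Day 3 replicate 2 stood apart: on the first principal component, which carried 40.1% of the variance, the day 3 arrays lay at 4.24, 40.2 and 16.6, and the day 10 arrays lay at 54.3 to 72.7. The controls were split as well: replicates 4 and 5 lay at 20.5 and 20.1 on the second component (24.2% of the variance), beside day 28 at 21.1 to 23.1, and replicates 1 to 3 at 1.59 to 4.38, so control ranges span both sets. Several of the genes below, among them Arg1, Timp1 and Hspa1a, were highest among the day 3 arrays in replicate 2. The labels give no slide, scan date or extraction batch, so a batch was not tested. Nothing in the labels says more of the hearts than their group, so the p-values measure the spread between these samples.

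Of 12939 genes tested, each on its probe with the highest mean, 2106 rose from day 3 to day 10 (16.3%) and 2145 fell (16.6%) at an adjusted p under 0.05 by limma, with the Benjamini-Hochberg adjustment over all 19273 probes. The change was at least 2-fold for 653 of the genes that rose (5.05% of those tested) and 699 of those that fell (5.4%). The median change over all genes was -0.01 (log2). Against control, 1958 genes were higher (15.1%) and 1915 lower (14.8%) at day 3, and 2357 were higher (18.2%) and 2489 lower (19.2%) at day 10; these fits share arrays with the comparison of day 10 with day 3 and are given beside it only as levels. Genes whose 3 day 10 arrays all lay on one side of the 3 day 3 arrays numbered 5472 (42.3%). The plot of change against level shows cytokine and macrophage genes at the top and stress, atrial and metabolic genes at the bottom.

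**Figure D1:**
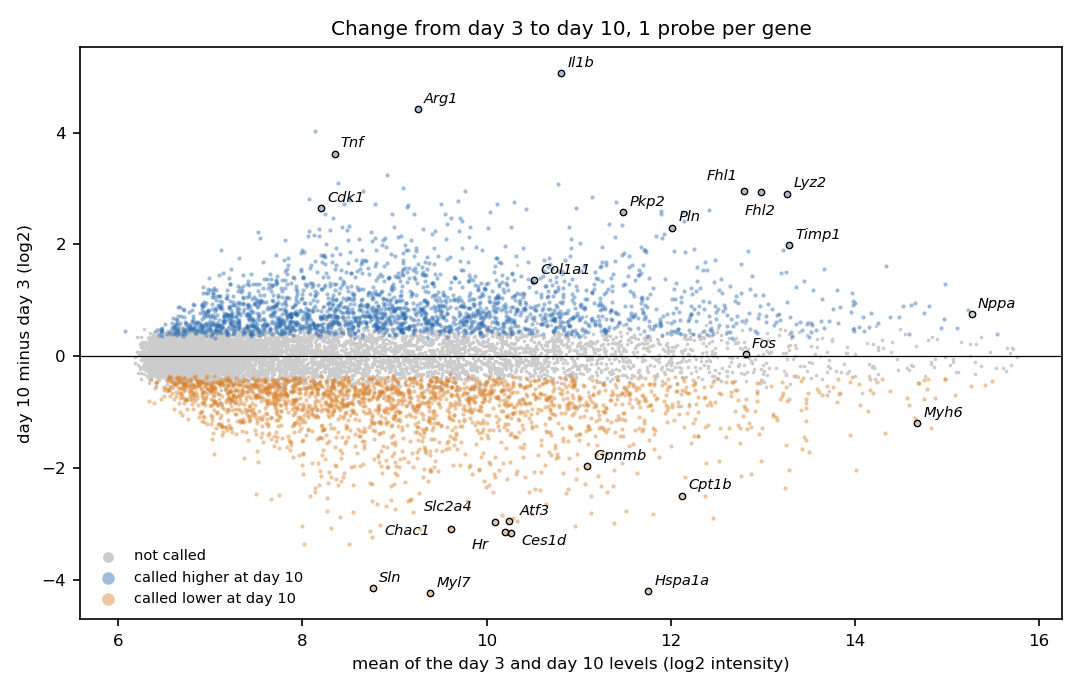
Each point is 1 of 12939 genes, with the mean of its day 3 and day 10 levels (log2 intensity) on the x axis and the day 10 minus day 3 difference (log2) on the y axis; 2106 genes called higher are blue, 2145 called lower are orange and the others grey. Il1b at 5.07 and Arg1 at 4.42 lie highest, Myl7, Hspa1a and Sln lie lowest at -4.24 to -4.16, and Fos lies at 0.03.

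Many acute stress genes fell from day 3 to day 10. Of 24 immediate early genes tested, the first transcription factors a cell induces after a stimulus, 8 fell and 2 rose (Ier3 and Zfp36), with a median change of -0.34 beside -0.01 over all genes; 1 rose without day 3 replicate 2, day 10 replicate 1 or day 10 replicate 2. Against control, 18 of the 24 were higher at day 3 and 11 at day 10, beside 15.1% and 18.2% of all genes. The median level of the list was 9.51 to 9.99 at day 3 and 8.33 to 8.67 at day 10, against 7.29 to 8.65 in the controls. In the day 28 arrays it was 9.48 to 10.0, as high as at day 3. Atf3, a stress-induced transcription factor, stood at 11.19, 11.70 and 12.27 in the day 3 arrays and at 8.75, 8.74 and 8.79 in the day 10 arrays, against 6.40 to 8.63 in the 5 controls. It fell by 2.96 ± 0.44 (log2 change ± SE, adjusted p = 1.08e-05), and the day 10 arrays lay just above the highest control. Jun, an AP-1 subunit, fell by 1.33 ± 0.24 (adjusted p = 0.000102), with 8.81 to 9.84 at day 3 and 7.88 to 8.09 at day 10. Csrnp1, a nuclear factor induced by growth signals, fell by 1.34 ± 0.38 (adjusted p = 0.00778), and Klf2, a Krüppel-like factor prominent in endothelium, fell by 1.41.

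Fos did not follow Atf3. This AP-1 subunit stood at 12.77, 12.50 and 13.13 at day 3 and at 12.79, 13.08 and 12.62 at day 10, a difference of 0.03 ± 0.50 (adjusted p = 0.976). The control arrays held it at 8.03, 8.67, 8.62, 11.45 and 8.41, so day 3 and day 10 lay above all 5 controls, control replicate 4 included. It was also high on day 28, with a mean of 12.60. Junb (-0.06), Egr1 (-0.14), Ier2 (0.13) and Socs3 (-0.02), genes of the same rapid responses, likewise gave small differences that did not pass the test.

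Heat shock chaperones, which hold and refold damaged proteins, gave 5 that fell and 2 that rose among 20 tested, with a median change of -0.33. These counts lie near the shares over all genes, 16.6% lower and 16.3% higher. Hspa1a, the inducible HSP70, stood at 12.63, 15.20 and 13.75 in the day 3 arrays and at 9.68, 10.20 and 9.06 in the day 10 arrays. The groups did not overlap, and day 3 replicate 2 was the highest of all. Hspa1a fell by 4.21 ± 0.65 (adjusted p = 1.86e-05), a level 18.5-fold lower at day 10, back within the control range of 7.23 to 10.43. Its near-identical neighbour Hspa1b was not analysed here, and the probe may read both. Dnajb1, the co-chaperone of HSP70, fell by 1.42 ± 0.25, and the small heat shock protein genes Hspb8 and Hspb6 fell by 1.28 and 0.69. Hspe1, the mitochondrial chaperonin HSP10, rose by 0.76, and Dnajb4 rose by 0.80; the count of 2 that rose went to 0 without day 10 replicate 2 or without day 10 replicate 3, and to 1 without any of the day 3 replicates.

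Of 24 genes of the ATF4 response, which couples amino acid shortage and organelle stress to transcription, 11 fell and 4 rose, with a median of -0.42; without day 3 replicate 2, 8 fell and the median was -0.28. Chac1, a glutathione-degrading enzyme, stood at 10.73, 11.59 and 11.16 at day 3 and at 8.15, 8.24 and 7.82 at day 10, below all 5 controls (8.77 to 9.76). It fell by 3.09 ± 0.34 (adjusted p = 1.82e-07). Atf5 fell by 1.63 ± 0.17, Aars, the alanyl-tRNA synthetase, by 1.10 ± 0.18, and Sesn2, a stress-induced inhibitor of mTORC1 signalling, by 0.97. The members that rose included Psat1, of serine synthesis, from 8.05, 9.02 and 8.32 to 10.77, 10.51 and 9.90 (1.93 ± 0.20, adjusted p = 1.15e-07). Nupr1, a stress-induced nuclear protein, rose by 1.35 ± 0.26. Atf4 itself differed by 0.09, which did not pass the test.

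Chac1 and Nupr1 moved in opposite directions although both promoters hold a C/EBP-ATF composite element, the kind of site ATF4 binds, spelled TGATGNAA and searched on both strands. RefSeq windows of 300 bases (250 before the transcription start and 50 after it, build GRCm38.p6) existed for 22 of the 24 genes, and 8 of these hold the element (36.4%), beside 3.29% of 10405 tested genes with a window. Of the 8, 2 rose and 2 fell; of the 14 without it, 2 rose and 8 fell. The Chac1 window is chr2:119350992-119351291 on the plus strand and the Nupr1 window is chr7:126625421-126625720 on the minus strand, both printed 5′ to 3′ on the strand of the gene with the element in capitals.
Chac1: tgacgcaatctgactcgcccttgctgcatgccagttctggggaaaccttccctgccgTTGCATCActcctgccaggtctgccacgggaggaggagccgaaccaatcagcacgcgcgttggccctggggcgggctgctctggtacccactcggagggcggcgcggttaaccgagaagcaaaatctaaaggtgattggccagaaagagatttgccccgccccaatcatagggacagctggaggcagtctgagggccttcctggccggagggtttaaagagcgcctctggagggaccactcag
Nupr1: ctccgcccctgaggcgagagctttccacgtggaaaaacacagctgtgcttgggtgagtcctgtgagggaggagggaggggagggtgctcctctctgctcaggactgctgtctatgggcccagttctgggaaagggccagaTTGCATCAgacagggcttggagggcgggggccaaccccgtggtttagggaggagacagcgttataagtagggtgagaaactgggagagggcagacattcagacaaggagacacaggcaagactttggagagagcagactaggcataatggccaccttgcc

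Genes of the p53 and DNA damage response fell more often than they rose: 10 of 28 fell and 1, Fas, rose, with a median of -0.39 (-0.24 without day 3 replicate 2). Cdkn1a, the cyclin-dependent kinase inhibitor p21, stood at 12.73, 14.12 and 13.53 at day 3 and at 11.70, 11.85 and 11.19 at day 10. It fell by 1.88 ± 0.41 (adjusted p = 0.000869), with no overlap, and stayed above the controls (8.21 to 9.91), by 2.26 on average. Gadd45a, which senses growth arrest and DNA damage, fell by 2.71 ± 0.20 (adjusted p = 9.15e-10), to 8.31 to 8.65, below all 5 controls. Bbc3, the pro-apoptotic PUMA, fell by 1.31 on the probe used, 1 of 3 probes and the one called, and Phlda3, a p53-induced repressor of AKT, fell by 0.98. Mdm2 (0.03) and Ccng1 (0.08), feedback targets of p53, did not pass the test.

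**Figure D2:**
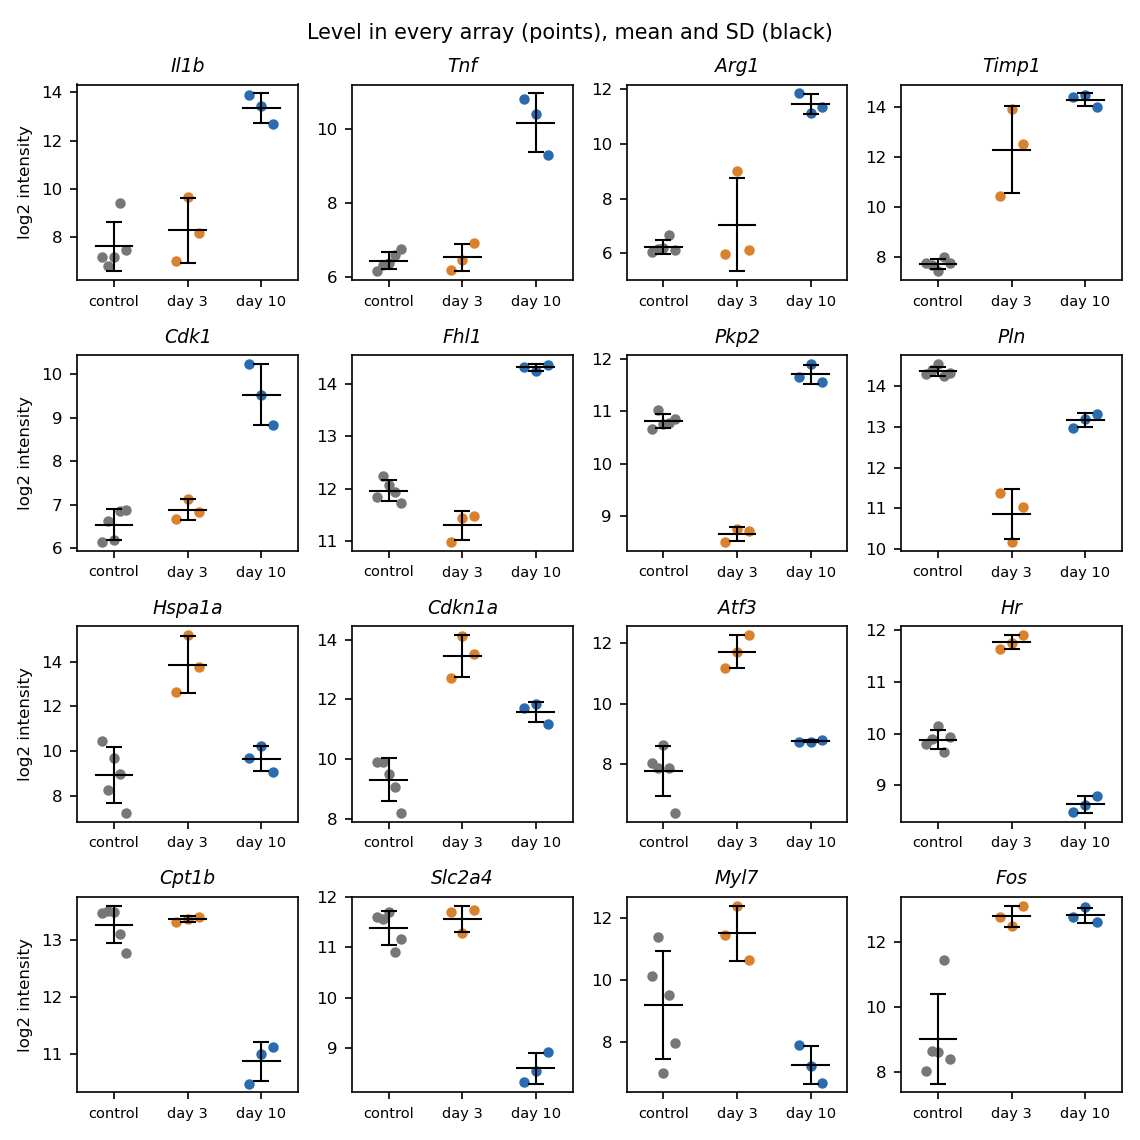
Each panel plots the log2 intensity of 1 gene in 5 control, 3 day 3 and 3 day 10 arrays (points) with the group mean (long bar) and the SD (error bar). Il1b, Tnf, Arg1 and Cdk1 have their 3 highest arrays at day 10, Hspa1a, Atf3 and Hr have theirs at day 3, and Fos is above every control at both times.

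Inflammatory cytokines rose after day 3. Of 34 cytokine, chemokine and NF-kB target genes, 19 rose and 1 fell, with a median of 1.14. Against control, 15 were higher at day 3 and 30 at day 10. Il1b, the gene of interleukin-1 beta, stood at 6.99, 9.67 and 8.18 at day 3 and at 13.90, 13.44 and 12.70 at day 10. In deposited intensity units this is 205, 892 and 367 against 15358, 11220 and 6714. The groups did not overlap, and 4 of the 5 controls lay between 6.80 and 7.48, with control replicate 4 at 9.40. Il1b rose by 5.07 ± 0.56 (adjusted p = 2.15e-07), 33.5-fold, and was the gene that rose furthest.

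Tnf, the tumour necrosis factor gene, stood at 6.19, 6.48 and 6.93 at day 3, within or just above the control range of 6.18 to 6.77, and at 10.81, 10.40 and 9.28 at day 10. It rose by 3.63 ± 0.33 (adjusted p = 1.37e-08). Osm, the macrophage cytokine oncostatin M, rose by 2.96 ± 0.28 (adjusted p = 2.32e-08), from 6.89 to 7.47 at day 3 to 9.52 to 10.49 at day 10, and both of its probes were called. Its receptor gene Osmr rose by 0.71. Among the chemokines, Cxcl2 (2.81 ± 0.39) and Cxcl1 (1.69 ± 0.63), which draw neutrophils, and Ccl9 (2.55 ± 0.42), Ccl4 (2.32), Ccl8 (1.42) and Ccl3 (1.37), which draw monocytes and other leukocytes, rose. The monocyte chemokines Ccl2 (0.21) and Ccl7 (0.56) and Il6 (0.52) did not pass the test. Feedback inhibitors of NF-kB rose as well, Nfkbia by 1.33 ± 0.26, Tnfaip3 by 1.67 and Nfkbiz, a related nuclear regulator, by 1.75. Lif, an interleukin-6 family cytokine, was the member that fell, by 1.05 ± 0.29, from 7.07, 9.16 and 7.71 to 6.87, 7.05 and 6.85. Without day 3 replicate 2 the counts were 22 that rose and 0 that fell.

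Macrophage genes rose over the same interval. Of 17 macrophage and monocyte markers, 14 rose and 0 fell, with a median of 1.63; Itgam (0.33), Lyve1 (0.40) and Cd163 (0.19) did not pass the test. The median level of the list was 8.29, 9.03 and 8.44 in the day 3 arrays and 10.7, 9.98 and 10.3 in the day 10 arrays, beside 7.82 to 8.86 in the controls. In bulk myocardium more cells of a type and more RNA per cell cannot be told apart, and neither can fewer cells and less RNA per cell. Lyz2, the macrophage lysozyme, stood at 11.13, 12.89 and 11.41 at day 3 and at a mean of 14.72 ± 0.30 (SD, n = 3) at day 10 (2.91 ± 0.42, adjusted p = 8.81e-06); 2 of its 3 probes were called, and its paralog Lyz1 may share reads of the array. Cd14, the lipopolysaccharide co-receptor, rose by 3.08 ± 0.42, from 8.42, 9.86 and 9.41 to 12.58, 12.78 and 11.59. Adgre1, which encodes the macrophage antigen F4/80, rose by 2.10 ± 0.24 and Mrc1, the mannose receptor, by 1.61 ± 0.22, with no overlap for either. C1qb, C1qc and C1qa, the subunits of complement C1q, rose by 1.89, 1.63 and 1.30.

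Of 27 genes of phagocytic and lipid-handling macrophages, 19 rose and 3 fell, with a median of 1.29. Arg1, the arginase of alternatively activated macrophages, stood at 5.99, 9.00 and 6.13 at day 3 and at 11.86, 11.15 and 11.37 at day 10. Day 3 replicate 2 was thus about 3 log2 units above the other day 3 arrays, which were at control level (6.05 to 6.66), and all 3 day 10 arrays were higher still. Arg1 rose by 4.42 ± 0.44 (adjusted p = 5.29e-08), 21.4-fold. Trem2, a lipid-sensing receptor, rose by 2.72 ± 0.22, from 7.11, 7.44 and 6.72 to 10.04, 9.93 and 9.46. Its signalling adaptor Tyrobp rose by 2.18. The Fc receptor genes Fcgr3, Fcgr4, Fcgr2b and Fcer1g, through which phagocytes bind antibody, rose by 2.48, 3.02, 2.31 and 2.15.

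Gpnmb went the other way. This transmembrane glycoprotein of phagocytes and stressed cells stood at 12.24, 12.19 and 11.80 at day 3 and at 10.74, 10.28 and 9.29 at day 10, and all 4 of its probes were called lower. It fell by 1.97 ± 0.47 (adjusted p = 0.00179) and still lay above the controls (6.78 to 7.99). Lgals3, galectin-3, was likewise far above control at day 3 (by 3.39) and rose by a further 1.20 ± 0.36. The other genes of this list that fell were Ctsd, a lysosomal protease (-0.49), and Lpl, lipoprotein lipase (-0.40).

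Lysosomal genes, antigen presentation and interferon-stimulated genes also rose more often than they fell. Among 22 lysosomal genes 10 rose and 3 fell, led by Ctss, the cathepsin of antigen-presenting cells (2.10 ± 0.23), Atp6v1h, a proton pump subunit (1.79), and Ctsc (1.68). Among 17 genes of MHC antigen presentation 10 rose and 1, Tap2, fell (-1.44). The class II genes H2-Aa (1.91 ± 0.31), H2-Ab1 (1.73), H2-DMa (1.57) and Cd74 (1.47 ± 0.30) rose, and at day 3 H2-Aa differed from control by -0.91 (adjusted p = 0.0166). The count that rose dropped to 5 without day 10 replicate 1 and to 6 without day 3 replicate 1 or without day 3 replicate 3. Among 20 interferon-stimulated genes 8 rose and 0 fell, led by Ifit3 (1.39) and Ifi27l2a (1.30), and 3 rose without day 10 replicate 1. Complement genes other than C1q moved less: 5 of 14 rose, Itgb2 (0.85) and Cfb (0.57) besides the C1q subunits, and Cd59a, a membrane inhibitor of complement, fell by 0.51.

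Neutrophil markers gave 4 that rose and 1, Ltf, that fell among 12. Those that rose were Csf3r (1.27, 2 of 4 probes called), Cxcr2 (0.98), Mmp9 (0.96) and S100a8. S100a8, a calprotectin subunit, stood at 8.01, 11.84 and 10.58 at day 3 and at 12.70, 12.74 and 12.11 at day 10 (2.37 ± 0.70, adjusted p = 0.0109). The controls ranged from 7.66 to 10.03. Its partner S100a9 (1.63) and the neutrophil gene Retnlg (1.24) did not pass the test, and the granule genes Ngp (0.22), Camp (-0.22) and Elane (0.04) gave small differences. Without day 3 replicate 2 the count that rose was 7. Stfa1 and Cstdc4, stefin genes of myeloid cells, were among the 15 genes that rose furthest, by 4.03 and 3.11, and their sequences are similar enough that the probes may cross-read. Of the lymphocyte and mast cell markers 1 of 8 T and NK cell genes rose (Cd28), 1 of 5 B cell genes fell (Cd79a) and 0 of 6 mast cell genes were called.

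Cell cycle genes rose between day 3 and day 10. Of 30 DNA replication genes 24 rose and 0 fell, with a median of 1.04, and of 26 mitosis and G2/M genes 20 rose and 0 fell, with a median of 1.04; 10 other members of the mitosis list and 3 of the replication list were below the intensity filter. Against control, 2 of the 26 mitosis genes were higher at day 3 and 22 at day 10. Cdk1, the kinase that drives entry into mitosis, stood at 6.67, 7.14 and 6.84 at day 3 and at 10.23, 9.53 and 8.82 at day 10. The controls ranged from 6.14 to 6.89. Cdk1 rose by 2.64 ± 0.25 (adjusted p = 2.22e-08) on this probe, 1 of 2 tested and the one called. Top2a, the topoisomerase of dividing cells, rose by 2.16 ± 0.21, from 6.88 to 7.23 at day 3 to 8.67 to 9.85 at day 10. Mad2l1, of the spindle checkpoint, rose by 2.48 ± 0.23, Anln, of the contractile ring, by 2.55 and Birc5, survivin, by 1.85. Tk1, thymidine kinase (2.27 ± 0.23), Tyms, thymidylate synthase (2.08), Mcm5, a subunit of the replicative helicase (1.95 ± 0.19), and Rrm1, ribonucleotide reductase (1.84), rose on the replication side. The median level of the mitosis list was 8.65, 8.30 and 7.42 in day 10 replicates 1, 2 and 3 and 6.82 to 6.99 at day 3, so replicate 3 was the lowest of the day 10 arrays and still above all day 3 arrays. These day 3 levels lie near the median of all probes (6.83), where a fall could hardly be called. The filter used the mean over all arrays, so a member dim at day 3 could pass it through its day 10 level. The 0 that fell and the median change of the mitosis list therefore depend in part on the filter. The replication list shares these limits, with a median level of 7.11 to 7.21 at day 3. Over the alternative settings its median change ran from 0.71 to 1.26, with 22 to 25 members that rose and 0 that fell. Which cells carried these transcripts cannot be read from bulk tissue.

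The promoters of these genes share short elements. Among the 23 mitosis genes with a window, 19 hold the CHR element TTTGAA (82.6%), which is bound by the DREAM and MuvB complexes, beside 15.9% of all 10405 genes with a window. The CCAAT box, spelled CCAAT and bound by NF-Y, was in 16 of the 23 (69.6%), beside 42.9% of all. Among 27 replication genes with a window, 8 hold an E2F site, spelled TTTCGCGC or TTTGGCGC (29.6%), beside 1.51% of all. Each motif was searched on both strands, and a CHR match and a CCAAT match can share letters at their ends. Of the 19 mitosis genes with the CHR element 14 rose, and of the 4 without it 3 rose; all 8 replication genes with an E2F site rose, and 13 of the 19 without it. The windows of 3 genes that rose are shown, with the E2F sites of Mcm5 in capitals (chr8:75109259-75109558, plus strand) and the CHR elements of Cdk1 (chr10:69352863-69353162, minus strand) and Top2a (chr11:99024140-99024439, minus strand) in capitals.
Mcm5: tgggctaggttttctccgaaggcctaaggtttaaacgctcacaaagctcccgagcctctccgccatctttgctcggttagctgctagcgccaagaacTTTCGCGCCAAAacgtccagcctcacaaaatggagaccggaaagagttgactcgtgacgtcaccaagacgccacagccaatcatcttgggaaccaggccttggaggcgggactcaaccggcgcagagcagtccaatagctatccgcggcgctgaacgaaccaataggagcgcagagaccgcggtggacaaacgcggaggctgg
Cdk1: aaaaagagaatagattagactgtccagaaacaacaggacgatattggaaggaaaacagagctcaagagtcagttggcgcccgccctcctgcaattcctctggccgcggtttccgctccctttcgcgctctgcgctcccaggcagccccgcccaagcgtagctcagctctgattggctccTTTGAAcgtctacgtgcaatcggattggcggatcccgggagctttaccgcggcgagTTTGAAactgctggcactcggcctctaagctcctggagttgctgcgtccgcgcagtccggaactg
Top2a: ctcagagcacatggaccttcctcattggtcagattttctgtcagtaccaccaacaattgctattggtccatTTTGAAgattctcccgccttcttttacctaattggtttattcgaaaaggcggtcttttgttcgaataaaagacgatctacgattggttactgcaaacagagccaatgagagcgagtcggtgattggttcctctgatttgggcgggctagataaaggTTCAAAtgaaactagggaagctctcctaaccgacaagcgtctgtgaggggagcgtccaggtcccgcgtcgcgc
The capitals of Mcm5 are 2 overlapping matches on opposite strands. In the counts that follow, a gene holds a site only if its window has an exact match to 1 spelling. A gene counted as without a site may still hold an imperfect one, or one outside the window. Whether these sites take part in the changes was not tested. For other lists, 7 of 26 cytokine genes hold an NF-kB site (26.9%, beside 2.08% of all), 4 of 17 chaperone genes hold a heat shock element (23.5%, beside 0.557%; 1 of the 4 rose and 0 fell, and all 5 that fell were among the 13 without it), and 1 of 19 immediate early genes holds an AP-1 site spelled TGANTCA (5.26%, beside 7.61%).

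**Figure D3:**
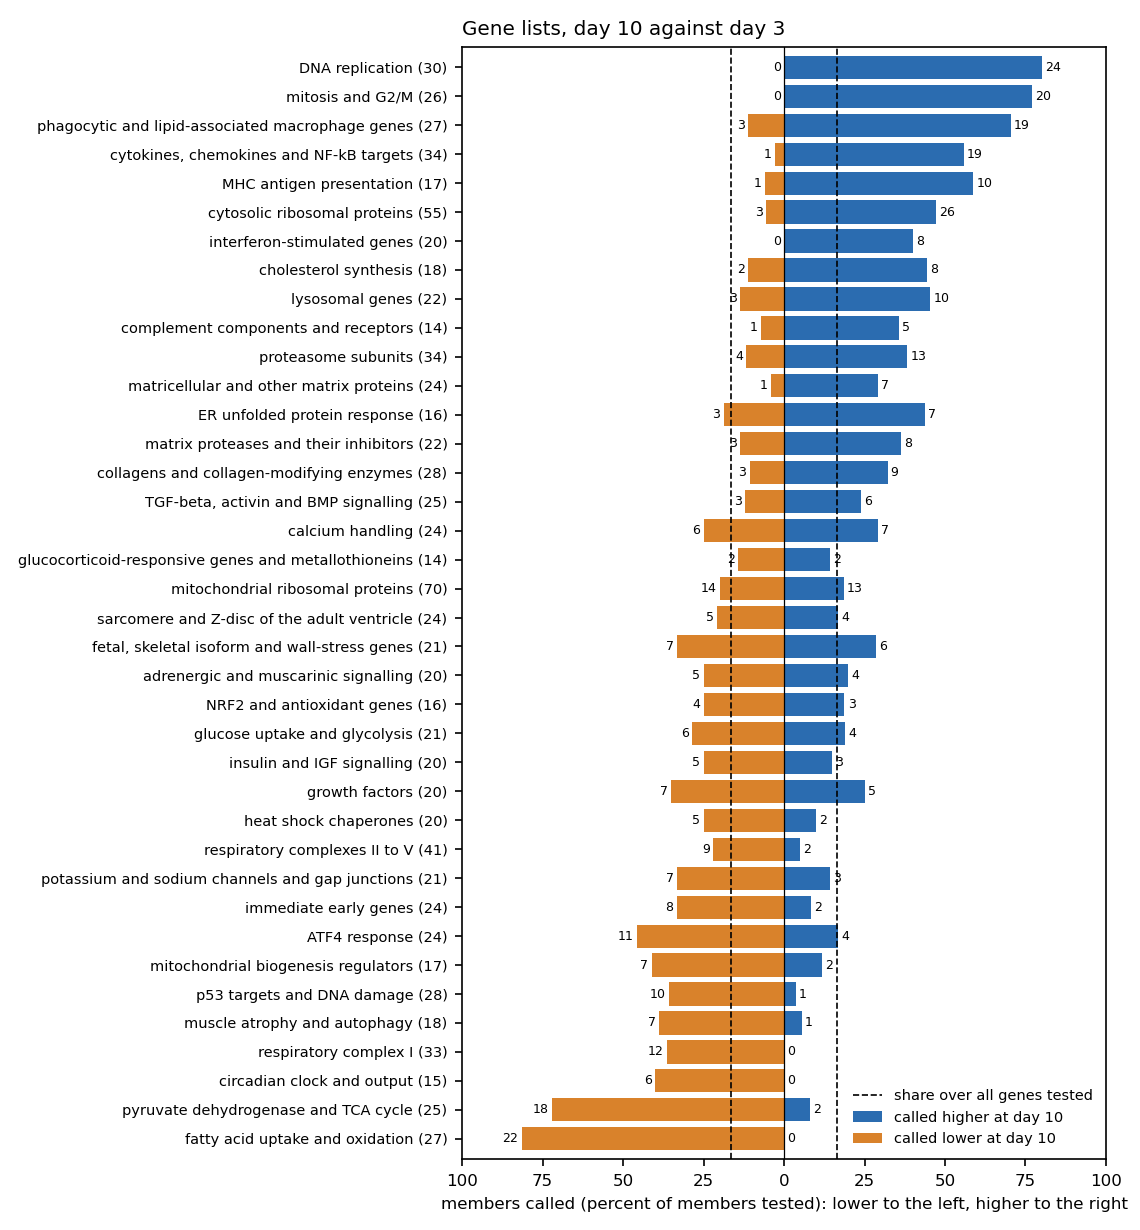
Each row is 1 gene list with its number of tested members in brackets; blue bars to the right give the percent of members called higher at day 10 than at day 3 and orange bars to the left the percent called lower, with the counts at the bar ends. Dashed lines mark the shares over all genes tested, 16.3% higher and 16.6% lower; DNA replication (24 of 30) is at the top and fatty acid oxidation (22 of 27) at the bottom.

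Of 28 collagens and collagen-modifying enzymes 9 rose and 3 fell, with a median of 0.25 (0.15 without day 3 replicate 1). Col1a1, of type I collagen, stood at 9.49, 10.43 and 9.57 at day 3 and at 11.22, 11.58 and 10.77 at day 10 (1.36 ± 0.27, adjusted p = 0.000329), above the controls (8.82 to 9.54). Its partner Col1a2 rose by 1.20, Col3a1 by 1.78 ± 0.29 and Col5a1 by 1.17, while the other fibrillar chains Col5a2 (0.23) and Col5a3 (-0.16) did not pass the test. The basement membrane collagens Col4a1 (-0.27) and Col4a2 (-0.33) did not pass the test, and Col15a1 fell by 0.83. Lox, which cross-links collagen, rose by 2.63 ± 0.41 (adjusted p = 2.46e-05), from 7.77, 10.67 and 8.92 to 12.00, 12.17 and 11.06, and the related Loxl1 and Loxl2 rose by 0.77 and 0.75.

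Of 22 matrix proteases and inhibitors 8 rose and 3 fell. Timp1, the tissue inhibitor of metalloproteinases, stood at 10.44, 13.90 and 12.53 at day 3 and at 14.38, 14.47 and 13.99 at day 10, against 7.42 to 8.01 in the controls. Most of its distance from control was thus covered by day 3, by 4.57 on average, with day 3 replicate 2 close to the day 10 arrays. The further rise of 1.99 ± 0.53 (adjusted p = 0.00522) was 1.07 (adjusted p = 0.0645) without day 3 replicate 1. Timp2 and Timp3 fell, by 0.87 and 0.79. Mmp3, stromelysin, rose by 2.54 ± 0.35, from 7.84, 9.11 and 7.89 to 11.14, 11.10 and 10.23, Ctsk, a collagen-degrading cathepsin, by 1.20 ± 0.23 and Mmp14, the membrane-bound metalloproteinase, by 0.64. Of 24 other matrix proteins 7 rose and 1 fell (4 rose without day 10 replicate 2). Tgfbi rose by 2.18 ± 0.43, Ccn5 by 1.65, Lum, lumican, by 1.28, and Fbln1, fibulin-1, fell by 1.53 (2 of 3 probes called).

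Growth factor genes were mixed. Of 25 genes of TGF-beta, activin and BMP signalling 6 rose and 3 fell, near the shares over all genes (16.3% higher and 16.6% lower). Tgfb2 (0.84), its receptor Tgfbr1 (0.81) and Fstl1, follistatin-like 1 (1.61 ± 0.24), rose, while Tgfb1 fell by 0.71. Inhbb, an activin subunit, stood at 8.04, 10.42 and 9.59 at day 3 and at 7.43, 7.17 and 7.52 at day 10, which is the control level (6.79 to 7.75), a fall of 1.97 ± 0.35. Of 20 growth factor genes 5 rose and 7 fell. Igf1 rose by 1.46 ± 0.20, from 7.68, 8.24 and 8.05 to 9.49, 9.42 and 9.46. Vegfa, the main endothelial growth factor, fell by 1.58 ± 0.30, Vegfb by 1.19 and Pdgfb, which recruits pericytes, by 1.95 ± 0.17 on 1 of its 2 probes. The number of growth factors that rose was 3 without day 10 replicate 1.

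Several structural and electrical genes of the myocyte were below control at day 3 and rose toward, to or past the control level by day 10. Fhl2, a LIM protein of the Z-disc, stood at 11.71, 11.27 and 11.57 at day 3 and at 14.37, 14.54 and 14.43 at day 10. The controls lay at 14.76 to 14.96, so the difference from control was -3.35 at day 3 and -0.42 at day 10. Fhl2 rose by 2.93 ± 0.26 (adjusted p = 1.05e-08). Fhl1, a related stress-sensing LIM protein of the sarcomere, stood at 10.98, 11.44 and 11.48 at day 3 and at 14.33, 14.25 and 14.37 at day 10 (3.02 ± 0.16, adjusted p = 9.72e-12), above all controls (11.72 to 12.24), by 2.35 on average; this is the probe of its 2 with the larger change, and the probe with the higher mean gave 2.96. Pkp2, plakophilin-2 of the desmosome, stood at 8.50, 8.74 and 8.71 at day 3 and at 11.65, 11.89 and 11.56 at day 10 (3.05 ± 0.19, adjusted p = 6.94e-11), on the probe of its 3 with the largest change. It too passed the controls, 10.66 to 11.02. Pdlim5, a Z-disc adaptor, rose by 2.62 ± 0.23 and Csrp3, muscle LIM protein, by 1.29 ± 0.14, each on every probe tested.

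Other sarcomere genes fell. The list of 24 sarcomere and Z-disc genes gave 4 that rose and 5 that fell, with a median of -0.07. These counts lie near the shares over all genes, 16.3% higher and 16.6% lower. Myh6, the adult alpha-myosin heavy chain, stood at 15.46, 15.16 and 15.20 at day 3, inside the control range of 15.13 to 15.72, and at 13.62, 14.12 and 14.48 at day 10. It fell by 1.20 ± 0.17 (adjusted p = 9.14e-06). The MerCreMer transgene is driven by the promoter of this gene, and its own level was not measured. Mybpc3, cardiac myosin-binding protein C, fell by 1.66 ± 0.19, Tcap, titin cap, by 1.17 ± 0.17, and Tnni3, cardiac troponin I, by 0.92. Myl2 (0.13), Actc1 (0.15) and Tnnc1 (-0.02) did not pass the test. Myl2 (means of 15.65 and 15.78) and Actc1 (15.58 and 15.73) lie near the highest value of the intensity scale, 15.8. Differences are compressed there, so a change in these 2 genes could be missed.

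Calcium handling genes moved both ways, with 7 that rose and 6 that fell among 24, beside 16.3% higher and 16.6% lower over all genes. Pln, phospholamban, the inhibitor of the sarcoplasmic reticulum pump, stood at 11.39, 10.18 and 11.03 at day 3 and at 12.99, 13.19 and 13.33 at day 10. It rose by 2.30 ± 0.35 (adjusted p = 1.36e-05) and remained below control (a difference of -1.20), where it lay at 14.27 to 14.55. Slc8a1, the sodium-calcium exchanger, rose by 2.85 ± 0.22, from 9.49, 9.79 and 9.90 to 12.42, 12.92 and 12.37, which lies inside or at the top of the control range of 11.79 to 12.92. Cacnb2, a calcium channel subunit (2.16 ± 0.21), and Camk2d, the main cardiac calmodulin kinase (1.82 ± 0.20, 3 of 4 probes called), rose as well. Atp2a2, the pump SERCA2 itself, stood at 15.63, 15.36 and 15.60 at day 3 and at 14.85 to 15.11 at day 10, a fall of 0.54 ± 0.12 (adjusted p = 0.00134), with all 3 day 10 arrays below the controls (15.64 to 15.82). Hrc, a calcium-binding protein of the reticulum, fell further, by 2.50 ± 0.28, from 13.13 to 13.98 at day 3 to 10.33 to 11.96 at day 10. Cacna1h, a T-type calcium channel, had been 2.22 above control at day 3 and fell by 2.87 ± 0.29.

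Of 21 channel and gap junction genes 3 rose and 7 fell. Gja1, connexin 43, stood at 12.08, 12.46 and 12.28 at day 3 and at 14.10, 14.06 and 14.35 at day 10, back at the control mean (a difference of -0.02); it rose by 1.90 ± 0.20 (adjusted p = 1.65e-07). Fgf13, an intracellular modulator of sodium channels, rose by 2.73 ± 0.18 and Kcnq1, a repolarising potassium channel, by 0.77. Hcn2, a pacemaker channel, stood at 9.79, 10.44 and 10.32 at day 3 and at 6.78, 6.97 and 6.71 at day 10, below every control; it fell by 3.37 ± 0.33 (adjusted p = 3.89e-08). Scn4b, a sodium channel beta subunit, fell by 3.13 ± 0.32, Kcne1, the partner of Kcnq1, by 2.45 ± 0.23 (2 of 4 probes called), and Kcnh2 by 1.80. Of 20 adrenergic and muscarinic signalling genes 4 rose and 5 fell, near the shares over all genes (16.3% higher and 16.6% lower). Grk5, a receptor kinase, rose by 1.01 ± 0.16 and Arrb2, beta-arrestin 2, by 1.46. Adcy6, an adenylyl cyclase, fell by 1.35 ± 0.29 (1 of 3 probes called) and Prkaca, the catalytic subunit of protein kinase A, by 1.43 ± 0.17.

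**Figure D4:**
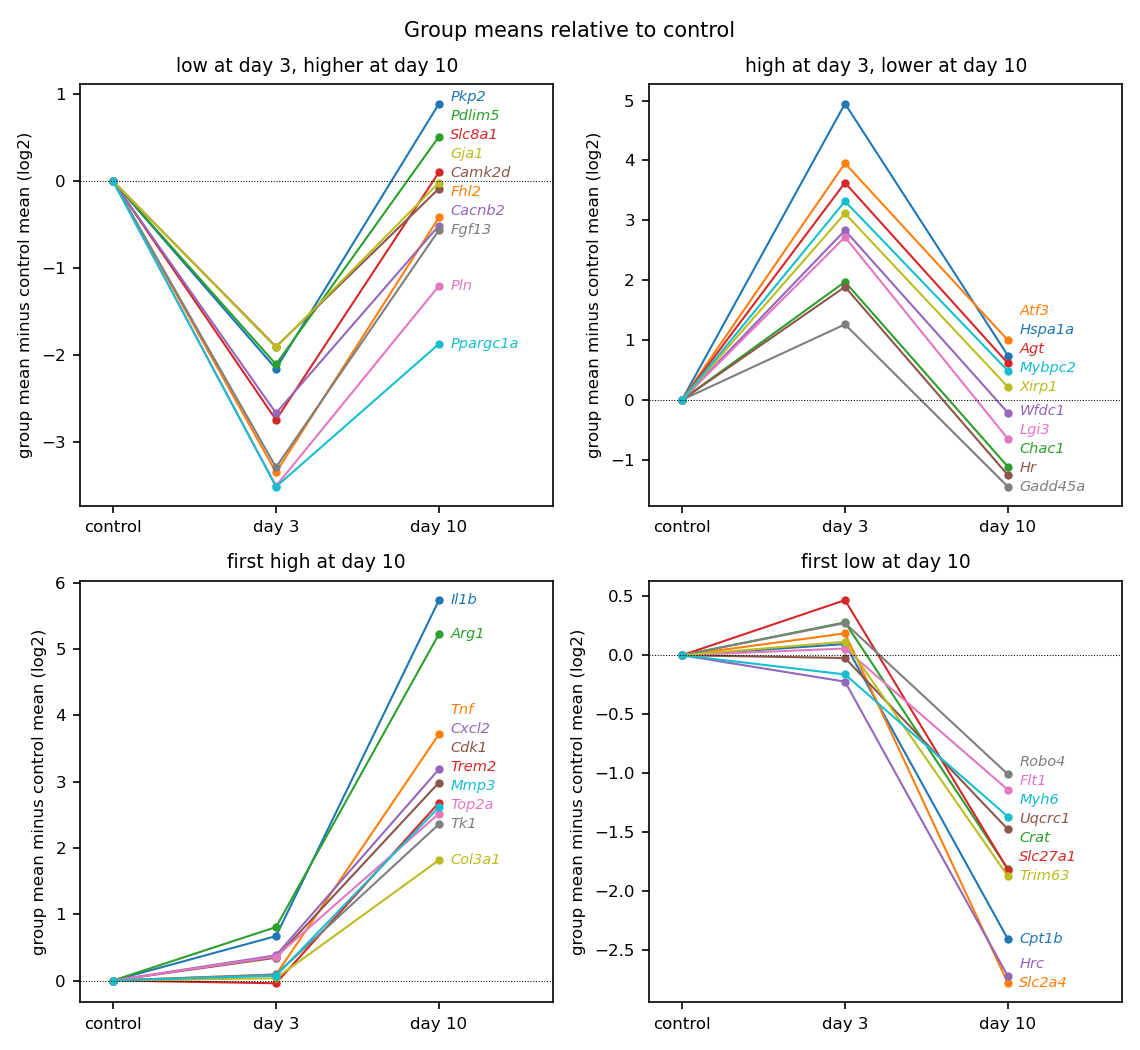
Each line is 1 gene and joins its mean level in the 5 control, 3 day 3 and 3 day 10 arrays, on the y axis as the difference from the control mean (log2); the panels hold genes chosen for their shape. Fhl2, Pln and Ppargc1a reach -3.35 to -3.51 at day 3, Hspa1a reaches 4.95 at day 3, and Il1b reaches 5.74 and Slc2a4 -2.78 at day 10.

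Natriuretic peptide genes, which mark wall stress, were high at both times. Nppb stood at 14.45, 14.89 and 15.09 at day 3 and at 15.64, 15.60 and 15.67 at day 10, and rose by 0.83 ± 0.27 (adjusted p = 0.0211); the adjusted p was 0.113 without day 3 replicate 1, 0.0532 without day 10 replicate 1 and 0.0540 without day 10 replicate 3. Nppa stood at 14.89, 15.11 and 14.67 at day 3 and at 15.63, 15.68 and 15.63 at day 10, without overlap, yet the difference of 0.75 ± 0.43 did not pass the test (adjusted p = 0.2), and its spread in the controls was wide (13.38 to 15.24). With the 6 arrays of these groups alone Nppa gave an adjusted p of 0.00336. Both genes lie near the top of the intensity scale, whose highest value is 15.8, where differences are compressed. Ankrd1, a stretch-responsive nuclear protein, rose by 0.96 ± 0.19.

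Some skeletal isoforms that were above control at day 3 fell by day 10. Of 21 fetal, skeletal isoform and wall-stress genes 6 rose and 7 fell, and of 9 skeletal muscle markers 0 rose and 5 fell. Myh1 (-0.03), Myl1 (0.04) and Actn3 (-0.37), of the same markers, did not pass the test and were not called against control at day 3. The median level of these markers at day 10 was 6.83 to 6.89, near the median of all probes (6.83). A marker dim at day 10 could pass the filter through its day 3 level. The median change of the markers ran from -1.38 to -0.32 over the alternative settings. Tnnt1, slow skeletal troponin T, stood at 14.43, 13.54 and 13.71 at day 3 and at 12.42, 12.84 and 13.53 at day 10, far above the controls (9.13 to 9.90) at both times. Its fall of 0.97 ± 0.31 (adjusted p = 0.0168) did not pass without day 3 replicate 1 (-0.70, adjusted p = 0.118), day 10 replicate 1 (-0.71, adjusted p = 0.122) or day 10 replicate 2 (-0.92, adjusted p = 0.0543). Tnnt3 and Tnni2, the fast skeletal troponins, fell by 2.24 ± 0.30 and 2.17 ± 0.26 and stayed 1.38 and 1.15 above control. Acta1, skeletal actin, fell by 2.04 ± 0.45 (adjusted p = 0.000999), from 14.99, 14.96 and 15.14 to 12.38, 12.65 and 13.94, into the control range of 12.72 to 15.18 or below it. Xirp1, of the intercalated disc, and Mybpc2, fast skeletal myosin-binding protein C, fell by 2.90 ± 0.34 and 2.83 ± 0.41. Myh7, the beta-myosin heavy chain, did not pass the test (-0.72 ± 0.43, adjusted p = 0.233).

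Atrial genes gave the steepest falls beside Hspa1a. Myl7, atrial myosin light chain 2, stood at 11.47, 12.41 and 10.65 at day 3 and at 7.89, 7.22 and 6.68 at day 10, and fell by 4.24 ± 0.94 (adjusted p = 0.00105). Sln, sarcolipin, stood at 11.32, 11.78 and 9.43 at day 3 and at 6.97, 6.61 and 6.49 at day 10, and fell by 4.16 ± 0.76 (adjusted p = 0.000132). Both also ranged widely within the control group, Myl7 from 6.99 to 11.40 and Sln from 7.15 to 10.56, and for both genes day 3 replicate 3 lay below the highest control. Of 12 atrial markers 5 fell, Myl4, Dkk3 (2 of 3 probes called) and Stard10 (1 of 2 probes called) being the others, and 0 rose. Nppa (0.75), Gja5 (-0.24), Nr2f2 (-0.09) and Kcnj3 (0.02) did not pass the test. The median level of the atrial list was 8.54 to 9.01 at day 3, 6.99 to 7.23 at day 10 and 7.64 to 8.52 in the controls. Atrial tissue in the sampled ventricle and atrial genes in ventricular myocytes cannot be told apart in these data.

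Most genes of fatty acid oxidation and the TCA cycle fell from day 3 to day 10, and genes of the respiratory chain did so less often. Of 27 genes of fatty acid uptake and oxidation 22 fell and 0 rose, with a median of -0.87. Against control, 12 of the 27 were lower at day 3 and 27 at day 10. Cpt1b, the carnitine palmitoyltransferase that admits fatty acids to the mitochondrion, stood at 13.32, 13.38 and 13.42 at day 3, inside the control range of 12.77 to 13.52, and at 10.48, 11.01 and 11.12 at day 10. It fell by 2.50 ± 0.18 (adjusted p = 7.93e-10), 5.65-fold. Crat, carnitine acetyltransferase, fell by 2.09 ± 0.16 and Slc27a1, a fatty acid transporter, by 2.28 ± 0.18, both from levels at or above control. Mlycd, malonyl-CoA decarboxylase (-1.46), Cpt2 (-1.43), Acads (-1.58) and Acadvl (-1.07), acyl-CoA dehydrogenases, fell too. Cd36, the fatty acid translocase (-0.13), and Cpt1a, the liver isoform (-0.26), did not pass the test.

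Slc2a4, the insulin-responsive transporter GLUT4, stood at 11.69, 11.28 and 11.74 at day 3 and at 8.34, 8.55 and 8.94 at day 10, against 10.90 to 11.70 in the controls. It fell by 2.96 ± 0.21 (adjusted p = 5.49e-10), 7.80-fold. Slc2a1, the basal transporter GLUT1, gave 0.41, which did not pass the test. Of 21 genes of glucose uptake and glycolysis 4 rose and 6 fell, beside 16.3% higher and 16.6% lower over all genes. The muscle isoforms Pgam2 (-1.89), Pfkm (-1.45) and Eno3 (-1.38) fell, and Hk3, a leukocyte hexokinase (1.29), and the platelet-type phosphofructokinase Pfkp (1.14) rose. The 4 that rose were 2 without day 10 replicate 1.

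Of 25 genes of pyruvate dehydrogenase and the TCA cycle 18 fell and 2 rose, with a median of -0.67. Pdk2, a kinase that inhibits pyruvate dehydrogenase, fell by 2.05 ± 0.17 and the phosphatase that opposes it, Pdp2, by 2.02, while Pdp1 rose by 0.88. Dlat, of the dehydrogenase core, fell by 1.81, Ogdh, of the cycle, by 1.66 ± 0.24, Idh3a by 1.27 and Mdh2 by 0.99 ± 0.15. Of 33 subunits of respiratory complex I 12 fell and 0 rose (7 fell without day 10 replicate 1), with a median of -0.36. Of 41 genes of complexes II to V 9 fell and 2 rose (14 fell without day 10 replicate 3), with a median of -0.26. Over all genes 16.6% fell, and the 9 of 41 and the 7 of 33 lie little above that share. Some subunits that did not pass, such as Atp5b (means of 15.78 and 15.51), lie near the top of the intensity scale, where differences are compressed. Uqcrc1, of complex III, fell by 1.45 ± 0.17, Sdhc, of complex II, by 0.96 ± 0.17 (1 of 2 probes called) and Atp5g1, of the ATP synthase, by 0.74 ± 0.13. Cox6a1 and Cox8a, the widely expressed isoforms of complex IV subunits, rose by 1.21 and 1.08, while Cox7a1, a muscle isoform, fell by 1.10 ± 0.23.

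The regulators of these genes moved apart. Ppargc1a, the coactivator PGC-1alpha, stood at 8.18, 7.54 and 7.74 at day 3 and at 9.00, 9.44 and 9.94 at day 10, and rose by 1.64 ± 0.45 (adjusted p = 0.00575). It remained below all 5 controls, which ranged from 10.32 to 12.48. Perm1, a muscle regulator downstream of it, fell by 2.43 ± 0.25, from 12.80, 11.91 and 12.86 to 9.55, 10.16 and 10.58, and Esrra, the estrogen-related receptor alpha, fell by 0.78 ± 0.19. Sirt3, the mitochondrial deacetylase, fell by 1.13. In all, 7 of 17 regulators fell and 2 rose. Of 70 mitochondrial ribosomal protein genes 13 rose and 14 fell, near the shares over all genes (16.3% higher and 16.6% lower). Their median was 0.04 (-0.02 without day 3 replicate 2), and 9 fell without day 10 replicate 1 or without day 10 replicate 2.

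**Figure D5:**
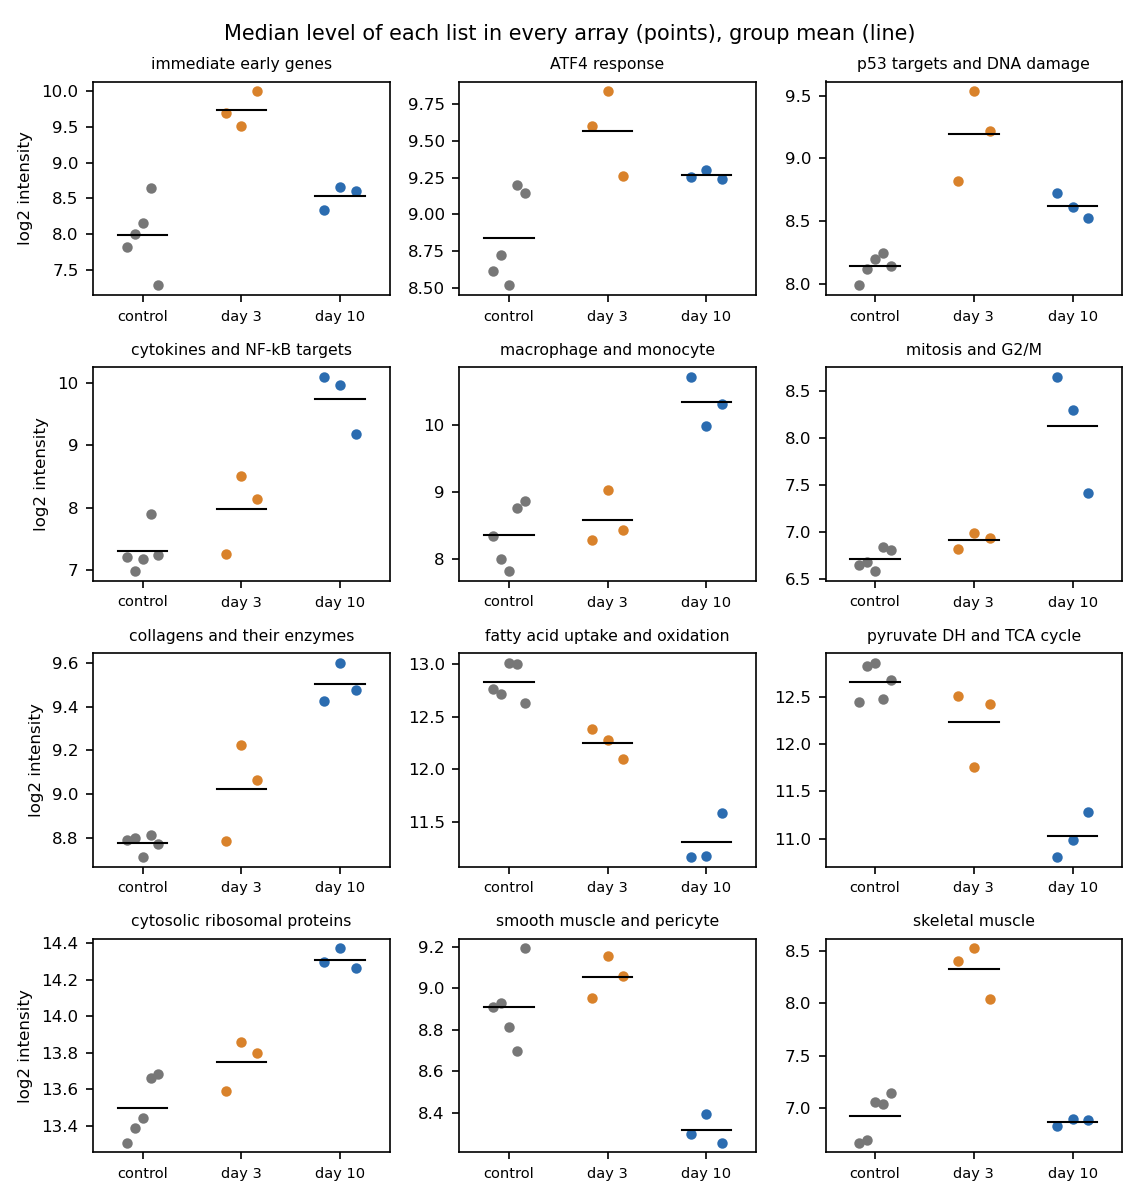
Each point is the median log2 intensity of the tested members of 1 list in 1 array, with the group mean as a line, for 5 control, 3 day 3 and 3 day 10 arrays. The macrophage and mitosis lists are highest at day 10, with mitosis medians of 7.42 to 8.65, the fatty acid list falls from 12.1 to 12.4 at day 3 to 11.2 to 11.6 at day 10, and the skeletal muscle list is high at day 3.

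Cytosolic ribosomal protein genes rose modestly. Of 55 tested 26 rose and 3 fell, with a median of 0.48, and 39 were higher than control at day 10 against 9 at day 3. Rplp0, of the ribosomal stalk, rose by 1.12 ± 0.20 on 1 of its 2 probes and Rpl12 by 0.92 ± 0.16. Rpl3l, the striated muscle paralog of Rpl3, did the reverse: it stood at 14.39, 14.13 and 14.39 at day 3 and at 11.95, 12.19 and 12.65 at day 10, a fall of 2.03 ± 0.17 (adjusted p = 5.09e-09). Processed pseudogenes resemble many of these genes, and probes may read them. The count that rose dropped to 13 without day 3 replicate 1 and to 16 without day 3 replicate 3 or day 10 replicate 1. Of 34 proteasome subunits 13 rose and 4 fell, with Psmd14, a deubiquitinating subunit, at 1.37.

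Of 16 genes of the unfolded protein response of the endoplasmic reticulum 7 rose, among them Sec61b (1.20), Pdia6 (0.96) and Hsp90b1 (0.75), and 3 fell, among them Dnajb9 (-1.07) and Herpud1 (-1.00). Of 18 cholesterol synthesis genes 8 rose and 2 fell, with Fdps at 1.12 and Sqle at 0.69, and 4 fell without day 3 replicate 3. Of 15 circadian genes 6 fell and 0 rose, led by Per1 (-1.41 ± 0.22); the hour of sampling is not in the labels. The NRF2, glucocorticoid and insulin lists lay near the shares over all genes, 16.3% higher and 16.6% lower. Of 16 NRF2 and antioxidant genes 3 rose and 4 fell, and of 14 glucocorticoid-responsive genes and metallothioneins 2 rose and 2 fell; the 2 that rose were 4 without day 3 replicate 2 and 1 without day 3 replicate 1, day 10 replicate 2 or day 10 replicate 3. Of 18 atrophy and autophagy genes 7 fell and 1 rose: Trim63, the muscle ubiquitin ligase MuRF1, fell by 1.99 ± 0.40 and Ulk1, the kinase that starts autophagy, by 2.04 ± 0.16. Of 20 genes of insulin and IGF signalling 3 rose and 5 fell, with Grb10, an adaptor that dampens insulin signalling, at 2.03 and Igfbp5, an IGF-binding protein, at -3.00 ± 0.27.

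Vascular genes fell while the activated smooth muscle actin rose. Of 16 endothelial markers 9 fell and 0 rose, with a median of -0.45. Flt1, a VEGF receptor, fell by 1.20 ± 0.17, from 12.20 to 12.41 at day 3 to 10.85 to 11.41 at day 10, and Robo4 by 1.28 ± 0.17 on 1 of its 3 probes. Pecam1 (-0.41) and Vwf (-0.15) did not pass the test. Of 12 smooth muscle and pericyte markers 8 fell and 1 rose, with a median of -0.66. Smtn, smoothelin, fell by 1.36 ± 0.26 (2 of 3 probes), Rgs5, a pericyte gene, by 1.04 ± 0.26 and Notch3 by 0.99. Acta2 was the member that rose, from 11.36, 12.33 and 12.13 to 13.76, 13.64 and 13.35 on 4 of 4 probes (1.64 ± 0.30, adjusted p = 0.000143). The median level of the smooth muscle and pericyte list was 8.95 to 9.15 at day 3 and 8.26 to 8.40 at day 10, below the controls (8.70 to 9.19).

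The remaining cell type lists were as follows. Of 14 cardiomyocyte markers 2 rose (Pln and Gata4) and 6 fell, with 1 that rose when any 1 of the 6 arrays was left out, and the median level of the list was 14.9 to 15.3 at day 3 and 14.0 to 14.5 at day 10, against 15.1 to 15.5 in the controls, with Myl2, Myl3 and Actc1 at means above 15; Ryr2 (means of 7.46 and 7.11) and Gata4 (7.07 and 7.56) lay near the median of all probes. Of 15 fibroblast markers 5 rose and 3 fell (Fbln1, Gsn and Pi16), with Pdgfra (0.45) not passing; without day 10 replicate 2 the count that rose was 3, and without day 10 replicate 1 the count that fell was 1. Of 6 activated fibroblast markers Acta2, which is also in the smooth muscle list, and Ddah1 rose. Fap (0.34), Ltbp2 (0.18), Meox1 (-0.18) and Comp (0.01) did not pass the test, and Meox1 was already 2.16 above control at day 3. Of 5 epicardial and mesothelial markers 3 fell: Krt18 (-1.99 ± 0.32), Wt1 (-1.36) and Krt8 (-0.56). Plin4 fell by 1.77 as 1 of 5 adipocyte markers, Pmp22 rose by 1.54 as 1 of 3 Schwann cell markers, and 0 of 5 erythroid markers were called. The part that a shift in cell types has in the changes of the gene lists was not tested.

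Among the 15 genes that fell furthest were several with narrow replicate spread and little place in the lists above. Hr, a nuclear corepressor best known from hair follicles, stood at 11.65, 11.75 and 11.91 at day 3 and at 8.47, 8.61 and 8.79 at day 10, against 9.64 to 10.15 in the controls. It was thus above every control at day 3 and below every control at day 10, and fell by 3.15 ± 0.17 (adjusted p = 9.87e-12). Igfals, which stabilises circulating IGF complexes (-3.24 ± 0.24), Igdcc4, an immunoglobulin-family membrane protein (-3.09 ± 0.19), and Extl1, an exostosin-like glycosyltransferase (-3.07 ± 0.21), had the same shape, with differences from control of -1.45, -1.34 and -1.28 at day 10. Agt, angiotensinogen, stood at 10.15, 10.62 and 10.27 at day 3 and at 7.08, 7.55 and 7.36 at day 10, against 6.55 to 6.94 in the controls (-3.02 ± 0.26, adjusted p = 7.16e-09). Wfdc1 (-3.05 ± 0.23) and Lgi3 (-3.37 ± 0.28), secreted proteins, had been 2.83 and 2.72 above control at day 3. Ces1d, a carboxylesterase that hydrolyses triglycerides, fell from 12.25, 11.33 and 11.96 to 8.40, 8.40 and 9.24, and was below control at both times (differences of -1.07 and -4.23). Dynll2, a dynein light chain, fell by 3.05 ± 0.85 (adjusted p = 0.00742), but day 3 replicate 2 (6.98) lay far below the other day 3 arrays (10.91 and 10.66) and near the day 10 arrays (6.39 to 6.59). The adjusted p for Dynll2 was 0.0576 without day 3 replicate 1 and 0.0560 without day 3 replicate 3.

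Of the 15 genes that rose furthest, those not yet described were Sirpb1a, a signal-regulatory protein of myeloid cells (3.25 ± 0.32), Ms4a6d, a membrane protein of macrophages (3.06 ± 0.38 on the probe of its 2 with the larger change, 2.76 on the other), and Ly86, the partner of the Toll-like protein RP105 (2.96 ± 0.28). Sirpb1a and Ms4a6d were again higher in day 3 replicate 2 (8.67 and 9.68) than in the other day 3 arrays, and the day 10 arrays of both were above it. Esr1, the endogenous gene of estrogen receptor alpha, stood at 6.40 to 6.89 at day 3 and at 6.18 to 6.60 at day 10. These levels are close to the median of all probes on the arrays (6.83), and Esr1 did not pass the limma test (-0.17 ± 0.17, adjusted p = 0.523).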

How the data were processed

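Left ventricular RNA of 19 mouse samples was hybridised to 1-colour Illumina bead arrays as biotinylated cRNA, per the labels' protocols. The deposited intensities are on a linear scale and already share 1 distribution (the sorted values of all arrays are equal), so they were not normalized again; the software is not given in the sources used here. Here they were background-corrected with normexp (offset 50) and taken to log2, so log2 values are computed from the deposited intensities, and low levels are compressed. Probes with a mean intensity of at least 163, the 25th percentile, were kept: 19273 of 25697, of which 18096 have 1 gene symbol. limma 3.58.1 in R 4.3.3 fitted 1 mean per group over all 19 arrays (lmFit, contrasts.fit, eBayes), with Benjamini-Hochberg adjustment over all probes tested and a threshold of 0.05. Gene lists use each gene's probe with the highest mean over all arrays.

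The members and lists were chosen with earlier results of these data known. The text names, on the scale of the log2 change, the 15 steepest rises and the 15 steepest falls, and a set of fixed cardiac, stress and cytokine genes. From the lists it names a selection of members, called and not called. That selection follows no fixed rule and leaves out called members with smaller adjusted p than some it names, such as Rps15a of the ribosomal list (-1.32). On simulated data for day 10 against day 3, 188 of 200 changed probes among 19273 were recovered, with 8 false calls. The simulated noise was independent and normal, with the same SD in every group, and the changes were of 1 or 2 log2 units. In the data 6053 probes were called, many changes were smaller and day 3 replicate 2 stood apart. The simulated rates therefore check the fit and do not give the error rates of this comparison. The alternatives were no background correction, an offset of 16, other filters, a fit of the 6 arrays, replicate blocks, trended variances, array weights, 1 probe per gene and leaving out each array. Same-numbered day 3 and day 10 arrays correlated at -0.128, -0.014 and 0.101 in their deviations from the group means, so the numbers were not taken as pairs. A second deposited table, of values before normalization, was not used, because its column names match no sample label; they come in 2 styles, on 10 and 9 arrays, which could not be tied to groups, so a batch behind them was not tested. The number of arrays limits the precision. Promoter windows are those of RefSeq, build GRCm38.p6.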

Additional observations from a re-analysis of the deposited data

Results flagged for a closer look

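Among 34 genes whose control levels were examined, 4 had 1 of the 5 control arrays far from the others, by the ratio of its gap to the whole range; chance alone gives about 1 such array in 20 groups. Il1b stood at 9.40 in control replicate 4, with the nearest other control at 7.48 (ratio 0.737). Arg1 stood at 6.66 in the same array, with the nearest other control at 6.18 (ratio 0.793). Fos stood at 11.45 in the same array, with the nearest other control at 8.67 (ratio 0.814). Nppa stood at 15.24 in control replicate 2, with the nearest other control at 13.84 (ratio 0.752). Groups of 3 arrays, day 3 and day 10 among them, are too small for this measure.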

How the results depend on the processing

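Over the alternatives other than leaving out an array, the number of probes called between day 10 and day 3 ran from 5029 (replicate block over the 6 arrays) to 8160 (array weights), beside 6053, all within 1.5 times; 1 probe per gene gave 4282. Probes called and changed at least 2-fold numbered 1288 without background correction and 2376 with an offset of 16, beside 1837. Leaving out 1 array at a time gave 5007 to 5826 probes called, 2546 to 2918 higher, 2461 to 2908 lower and 1701 to 2102 at least 2-fold. Fos, whose difference of 0.03 did not pass the test, changed sign with array weights (-0.16), without day 3 replicate 2 (-0.12) and without day 10 replicate 2 (-0.10), in a range of -0.12 to 0.19 when 1 array was left out; the cause was not tested. With the replicate number as a block the count was 6081 over all 19 arrays and 5029 over the 6 arrays alone; in the latter Myh7 (adjusted p = 0.0348, limma) and Nppa (adjusted p = 0.00714, limma) passed the threshold. The replicate numbers do not pair the arrays. Of the counts of list members recomputed, 1732 stayed within 1.5 times and 104 did not. Array weights gave the highest counts that fell for complex I (19, beside 12), complexes II to V (18, beside 9), mitochondrial ribosomal proteins (23, beside 14) and heat shock chaperones (9, beside 5), and gave 11 matrix proteins (beside 7) and 8 neutrophil markers (beside 4) that rose. The mitosis median of 1.04 was 0.61 with no filter and 1.62 with the 50th percentile filter; without background correction the medians were -0.18 for immediate early genes and -0.23 for p53 targets. With 3 arrays a group and no batch in the labels, differences near the spread between replicates are not resolved, and dim probes lie near background.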
